A study of Mus musculus with 10 samples.

Results

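The genes described here encode histone lysine demethylases: *Kdm1a*, *Kdm1b*, *Kdm2a*, *Kdm2b*, *Kdm4a*, *Kdm4b*, *Kdm4c*, *Kdm5a*, *Kdm5b* and *Kdm6b*. Their members are all 5 kb windows that the deposited table assigns to one of these 10 genes by its gene label, 159 of 544879 windows in all. What was measured is H3K4me3 on the chromatin of these genes, and not their expression or the activity of the enzymes. *Kdm4c* holds 34 windows, *Kdm2b* 30, *Kdm2a* 17, *Kdm4b* and *Kdm5a* 16 each, *Kdm5b* 15, *Kdm1a* and *Kdm4a* 10 each, *Kdm1b* 8 and *Kdm6b* 3. Of the 159 windows, 8 hold the start of their gene, 145 are internal and 6 lie upstream of the annotated start of *Kdm2b*. The windows with the starts of *Kdm1b* and *Kdm5a* carry the labels of the divergent neighbours *Tpmt* and *Ccdc77*, so their values are given here as start windows but are not among the 159.

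H3K4me3 was profiled by ULI-nChIP-seq, a native ChIP-seq for few cells that digests chromatin with micrococcal nuclease, in germinal vesicle (GV) oocytes of 21-day-old females, with the strain given as C57BL6 in the labels and as C57BL/6OlaHsd in the study's methods. *Setd1b* cKO oocytes (N = 3, replicates 1, 3 and 4) were homozygous for floxed *Setd1b* and carried *Gdf9*-Cre, which is expressed in oocytes and deletes the H3K4 methyltransferase gene there. WT oocytes (N = 3, replicates 1, 2 and 4) were labelled as homozygous for the same floxed allele and negative for Cre, so the floxed allele is common to both groups. The study's methods also count heterozygous females with *Gdf9*-Cre as WT, and which of the pools, if any, held such females is not given in the sources used here. Each library came from a pool of about 200 oocytes, in which a mark on fewer alleles and a weaker mark on all alleles cannot be told apart, and input chromatin was available for replicates 1 and 4 of each genotype.

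H3K4me3 marks active gene starts and, in fully grown mouse oocytes, also spreads over broad domains away from promoters. Histone demethylases remove such methyl groups and fall into amine oxidases, the KDM1 enzymes, which act on lower methylation states of H3K4, and Jumonji enzymes, which can remove trimethylation. Among the latter, the KDM5 enzymes act on H3K4me3, the KDM4 enzymes on H3K9 and H3K36 methylation, the KDM2 enzymes mainly on H3K36 methylation, and KDM6B on H3K27me3.

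The H3K4me3 libraries held between 10856015 and 32775874 reads in windows, a median member window held 18 reads in a library, and the start windows held between 3 and 205 reads, so counting error is large in single windows. The values are enrichment-normalized RPKM, a linear scale without a true zero, on which a window without reads has a value between −1.02 and 0.810 depending on the library; differences are therefore given and no folds. The cKO replicate 3 had the highest value of the 6 libraries in 61 of the 159 member windows (38.4%), in 31.3% of all gene windows without a gene start and in 23.1% of all windows. At the start of *Setd1b*, H3K4me3 was 7.56, 7.65 and 6.11 in WT and 4.50, 4.66 and 3.93 normalized RPKM in cKO (difference −2.74, standard error 0.465, limma adjusted p = 0.0332, edgeR adjusted p = 0.449), which does not measure the deletion itself. The start windows of all 8 oocyte markers were among the top 10% of all windows in WT, against 1 of 5 granulosa markers and 0 of 2 blood markers. Among these markers 1 start window was called, that of the granulosa marker *Foxl2*, with a difference of 2.85 normalized RPKM (limma adjusted p = 0.0415, edgeR adjusted p = 0.743). Of the oocyte markers 6 of 8 had lower cKO means, against 45.8% of protein-coding start windows, with a median difference of −1.35 over the list. Over all windows the median difference was −0.301 at WT levels of 4.5 to 5 and −1.23 at 7.5 to 8 normalized RPKM. *Gdf9*, whose promoter drives the Cre, instead had 7.46 in WT and 10.7 normalized RPKM in cKO (limma adjusted p = 0.0598) beside input values of 2.01 and 3.21. The summed level of the granulosa markers was 14.1 to 15.4 in WT and 20.9 to 21.9 in cKO libraries, that of the oocyte markers 46.8 to 53.9 and 41.7 to 45.7, and that of the blood markers 2.196 to 3.14 and 2.12 to 2.46 normalized RPKM, and the part of these shifts in the differences reported here was not tested.

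The DNA at the gene starts differs widely in CpG content, and the stretches below show this range. They are upstream of RefSeq starts (GRCm38.p6, RefSeq promoter table), read 5′ to 3′ on the strand of the gene, with every CG in capitals. The CG motif reads the same on both strands and stands in 92.1% of the 32851 RefSeq promoters (250 bases before the start), with a median of 6. The table matched 6 of the 10 genes, with 10 starts. *Kdm4c* is shown with both of its starts, because the first has no CG and the second has 19, *Kdm2b* with a start inside the gene that is rich in CG while its window was low in H3K4me3, and *Kdm1a* and *Kdm5b* as marked starts. *Kdm2b* has 4 RefSeq starts in the table, of which the 2 in its start window have 12 and 27 CGs. The stretch of *Kdm1a* is shortened to the 186 bases that no RefSeq mRNA covers.
Kdm1a, chr4:136602788-136602973, minus strand: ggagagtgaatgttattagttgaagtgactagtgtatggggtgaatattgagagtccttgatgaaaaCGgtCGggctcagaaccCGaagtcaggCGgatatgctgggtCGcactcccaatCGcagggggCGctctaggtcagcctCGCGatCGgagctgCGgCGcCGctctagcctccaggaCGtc
Kdm2b internal start, chr5:122900368-122900617, minus strand: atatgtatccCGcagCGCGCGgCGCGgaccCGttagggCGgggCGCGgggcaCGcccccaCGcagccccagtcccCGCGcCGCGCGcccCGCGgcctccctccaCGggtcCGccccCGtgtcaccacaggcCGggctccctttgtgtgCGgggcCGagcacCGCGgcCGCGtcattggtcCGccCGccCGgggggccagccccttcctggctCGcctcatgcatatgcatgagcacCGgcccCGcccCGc
Kdm4c first start, chr4:74242247-74242496, plus strand: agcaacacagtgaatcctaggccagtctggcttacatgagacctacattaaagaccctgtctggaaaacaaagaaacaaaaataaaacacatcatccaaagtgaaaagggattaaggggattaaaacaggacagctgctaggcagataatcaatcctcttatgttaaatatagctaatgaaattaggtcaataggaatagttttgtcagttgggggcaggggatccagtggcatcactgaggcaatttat
Kdm4c second start, chr4:74251629-74251878, plus strand: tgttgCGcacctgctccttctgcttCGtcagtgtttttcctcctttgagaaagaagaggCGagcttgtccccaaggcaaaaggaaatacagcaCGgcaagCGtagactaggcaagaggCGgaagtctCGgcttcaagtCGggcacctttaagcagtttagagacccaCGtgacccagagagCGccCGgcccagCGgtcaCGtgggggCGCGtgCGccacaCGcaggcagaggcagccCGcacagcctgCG
Kdm5b, chr1:134559928-134560177, plus strand: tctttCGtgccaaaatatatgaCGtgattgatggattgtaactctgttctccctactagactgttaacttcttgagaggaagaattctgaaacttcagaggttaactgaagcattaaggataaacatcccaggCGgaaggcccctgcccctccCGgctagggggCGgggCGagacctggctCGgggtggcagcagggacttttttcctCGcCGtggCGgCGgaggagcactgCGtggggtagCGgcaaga

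In WT oocytes, 6 of the 10 start windows belonged to the top 10% of all windows (at least 4.31 normalized RPKM), while 38.8% of the start windows of 20269 protein-coding genes did. *Kdm6b* was highest at 7.57 ± 2.40 normalized RPKM (SD, N = 3), followed by *Kdm1a* at 5.83 ± 0.613, *Kdm4b* at 5.13 ± 1.10, *Kdm2a* at 4.63 ± 1.03, *Kdm5a* at 4.60 ± 0.795 and *Kdm1b* at 4.54 ± 0.698 normalized RPKM. *Kdm4c* at 3.96 ± 0.975, *Kdm5b* at 3.88 ± 0.182 and *Kdm4a* at 3.21 ± 0.387 normalized RPKM followed, and *Kdm2b* was last at 1.06 ± 0.195 normalized RPKM. Neighbours in this order differed by less than the larger of their SDs, apart from *Kdm5b* and *Kdm4a*, and *Kdm4a* and *Kdm2b*. In cKO oocytes the order ran from *Kdm2a* (6.44 ± 0.906) through *Kdm5a*, *Kdm1a*, *Kdm1b*, *Kdm5b*, *Kdm4b*, *Kdm6b*, *Kdm4a* and *Kdm4c* to *Kdm2b* (1.83 ± 0.855 normalized RPKM), and among neighbours only *Kdm1a* and *Kdm1b* lay more than the larger SD apart.

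**Figure D1:**
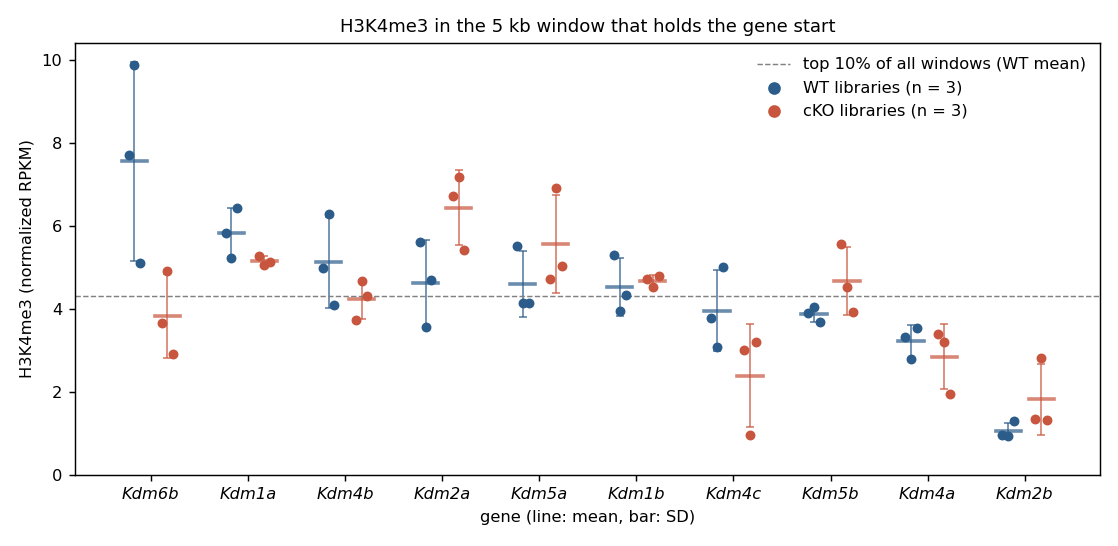
H3K4me3 (normalized RPKM) in the start window of each gene, one point per library, with the mean and SD of 3 WT and 3 cKO libraries and a dashed line at the top 10% of all windows by WT mean. *Kdm6b* is the highest gene in WT and the only one whose cKO libraries all lie below the WT libraries, and *Kdm2b* stays near 1 in every WT library.

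Loss of SETD1B was compared with WT window by window, to ask where the demethylase genes gained or lost H3K4me3. None of the 159 member windows was called (limma, adjusted p under 0.05, adjustment over all windows), where 1.02% of all windows were. This held for the start windows, of which 1.93% were called over protein-coding genes, and for the internal windows, of which 1.17% were called over all genes. An unadjusted p under 0.05 was found in 10 member windows (14.9% of all windows). All cKO libraries lay above all WT libraries in 16 member windows (9.88% of all windows) and below them in 3 (9.95% of all windows). With an intensity trend in the variance, limma called 2 member windows (3.58% of all windows), and edgeR on whole reads called 1 (2.27% of windows tested). The share of member windows that differed was thus near or under that of the genome in each of these counts. The study itself reported significant gains or losses over 3.6% of the genome. That share is near the one with an intensity trend (3.58%) and above that of the main test (1.02%).

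Small differences were more often upward than downward. H3K4me3 was higher in cKO in 104 of the 159 windows (65.4%), against 43.7% of all windows and 57.7% of the 227312 gene windows without a start. The median difference was 0.166 normalized RPKM, against −0.103 over all windows and 0.109 over those gene windows. *Kdm4b* was higher in cKO in 14 of 16 windows, *Kdm2b* in 22 of 30 and *Kdm4c* in 17 of 34. *Kdm5a* was higher in only 7 of 16 windows, with a median difference of −0.091 normalized RPKM. These counts hold for the deposited values, and the direction of small differences depends on the scaling. On whole reads (edgeR) the median difference of all windows was 0.0872 on the log2 scale. Windows lower in cKO by the deposited values could be higher on whole reads, such as *Kdm4c* from 74290001 (−0.0624 and 0.516) and *Kdm5a* from 120375001 (−0.238 and 0.146). Differences ranged from −3.73 at the start of *Kdm6b* to 1.81 at the start of *Kdm2a*, and the median input value of the member windows was 2.13 per window in WT and 2.19 in cKO, close to 2.05 over all windows in both.

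**Figure D2:**
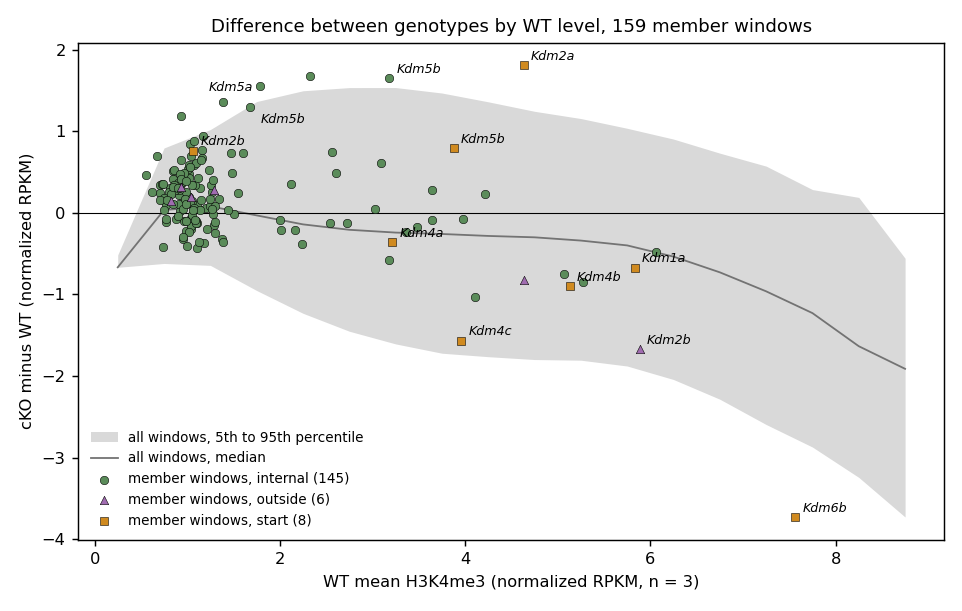
Difference between genotypes (cKO minus WT, normalized RPKM) against the WT mean for the 159 member windows, with the 5th to 95th percentile and the median of all windows at the same WT level in grey. The start of *Kdm6b* lies below the grey band at −3.73, and the starts of *Kdm2a* (1.81) and a *Kdm5b* window (1.65) lie above it, while windows with a high WT level tend to lie below 0 across the genome.

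*Kdm6b* encodes JMJD3, the demethylase that removes the repressive H3K27me3 mark. Its start window, on chromosome 11 from 69410001 to 69415000 with 161 CpGs, had 7.72, 9.89 and 5.10 normalized RPKM in WT replicates 1, 2 and 4, and 3.67, 4.93 and 2.92 in cKO replicates 1, 3 and 4. All cKO libraries were lower than all WT libraries, although the highest cKO and the lowest WT library lay close together. The difference was −3.73 (standard error 0.994, 95% interval −5.94 to −1.52, adjusted p = 0.107 from limma), the largest of any member window, and it was not called. The exact permutation test over libraries gave p = 0.1, the smallest that 3 against 3 allow. With an intensity trend the window was called (limma adjusted p = 0.00704), with edgeR it was not (log2 difference −1.27, adjusted p = 0.242). The window next to it on the upstream side, which carries no gene label in the table, had 7.98, 7.36 and 6.83 in WT and 6.44, 7.43 and 6.15 normalized RPKM in cKO, so the groups overlapped there. The 2 internal windows of *Kdm6b* hold 164 and 162 CpGs, as many as the start, and had only 1.03 ± 0.0939 and 1.12 ± 0.307 normalized RPKM in WT.

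*Kdm2a* encodes a CXXC protein that binds unmethylated CpG islands and demethylates H3K36. Its start window, on chromosome 19 from 4395001 to 4400000, is the richest in CpG of all member windows, with 280 CpGs. It had 5.62, 3.56 and 4.71 normalized RPKM in WT and 6.72, 7.17 and 5.42 in cKO, so that cKO replicate 4 lay within the WT range. The difference of 1.81 (standard error 0.589, 95% interval 0.498 to 3.12) was the largest increase among the member windows without a call (limma adjusted p = 0.177), and the log2 difference was 0.41 for log2(value + 1) (limma adjusted p = 0.405) and 0.22 for whole reads (edgeR adjusted p = 0.894). Of the 16 internal windows of *Kdm2a*, 1 had a WT mean above the median of all windows (4350001 to 4355000, 2.24 normalized RPKM), and together they had means of 1.05 ± 0.165 in WT and 1.17 ± 0.0355 normalized RPKM in cKO.

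*Kdm2b* encodes the related CXXC protein that brings a variant Polycomb complex to CpG islands. Its start window, on chromosome 5 from 122985001 to 122990000, holds 162 CpGs but had 0.97, 0.94 and 1.29 normalized RPKM in WT. The cKO libraries had 1.34, 2.81 and 1.33 normalized RPKM, all above the WT libraries. The difference of 0.76 was not called (standard error 0.448, adjusted p = 0.479 from limma) and fell to 0.27 without cKO replicate 3. The internal window with the CG-rich RefSeq start printed above holds 167 CpGs and was equally low, at 1.09 ± 0.214 in WT and 1.42 ± 0.0872 normalized RPKM in cKO. *Kdm2b* and *Kdm6b* together held 7 of the 8 member windows with at least 100 CpGs and a WT level under the median of all windows, out of 17 member windows with that many CpGs. In the genome 23.9% of windows with at least 100 CpGs were under that median, and 37.8% were in the top 10%.

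**Figure D3:**
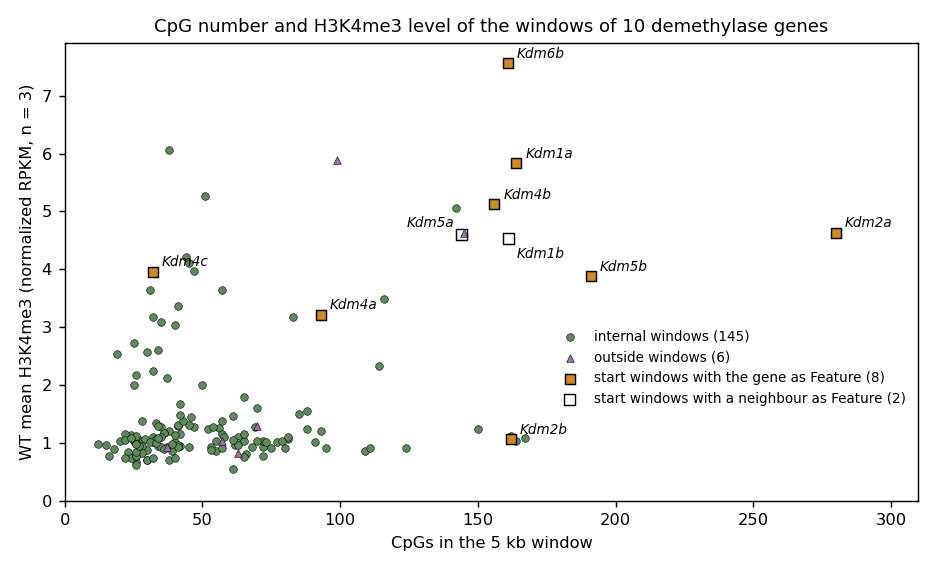
WT mean H3K4me3 (normalized RPKM) against the number of CpGs in each window, with start windows as squares, internal windows as circles and windows beyond *Kdm2b* as triangles. *Kdm2b* (162 CpGs, 1.06) and *Kdm1a* (164 CpGs, 5.83) differ in level at a like CpG number, and *Kdm4c* carries 3.96 at 32 CpGs.

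Over the member windows, Spearman's rho between CpG content and WT level was 0.249 (159 windows), and it was 0.223 over 529282 windows of the genome. These are descriptions across windows, which share libraries and neighbours.

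The strongest H3K4me3 near *Kdm2b* lay upstream of its start, in windows that the table assigns to the gene but that lie beyond its annotation. The window from 123010001 to 123015000 also holds the start of the noncoding gene *Gm44574*, which is transcribed in the same direction. It had 5.99, 5.996 and 5.67 normalized RPKM in WT and 4.67, 4.13 and 3.83 in cKO, each cKO library being lower than each WT library. The difference of −1.67 (standard error 0.357) came close to the threshold (adjusted p = 0.0599 from limma, 0.614 from edgeR) and passed it among windows with a mean of at least 1 (adjusted p = 0.0498) and without cKO replicate 1 (adjusted p = 0.0317). With an intensity trend it did not pass (limma adjusted p = 0.163). The next window holds the starts of *Orai1* and *Gm2479* and had 4.63 ± 1.70 in WT and 3.81 ± 0.703 normalized RPKM in cKO, which overlapped. The start of *Kdm2b* lies 152.4 kb from the start of *Setd1b* on the same chromosome.

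The KDM1 enzymes remove lower methylation states of H3K4, and KDM1B is known for its need in oocytes to set up maternal DNA methylation imprints. At the start of *Kdm1a* (chromosome 4 from 136600001 to 136605000, 164 CpGs) the WT libraries had 5.83, 5.22 and 6.44 normalized RPKM and the cKO libraries 5.28, 5.06 and 5.13. The groups overlapped, and the difference of −0.68 was not called (95% interval −1.54 to 0.187, adjusted p = 0.468 from limma) and was −0.37 without WT replicate 4. The start of *Kdm1b* (chromosome 13 from 47040001 to 47045000, 161 CpGs, shared with *Tpmt*) had 5.31, 3.95 and 4.35 in WT and 4.72, 4.53 and 4.80 normalized RPKM in cKO, with all cKO values inside the WT range. Its difference was 0.15 (95% interval −0.759 to 1.05, adjusted p = 0.874 from limma). In *Kdm1a* the level fell to that of the gene body over the next few windows, and in *Kdm1b* the first internal window still had 3.17 ± 0.501 in WT and 2.60 ± 0.505 normalized RPKM in cKO. The internal window of *Kdm1a* with non-overlapping groups (136565001 to 136570000) differed by 0.23 normalized RPKM and was at background level in both groups (adjusted p = 0.734 from limma), and *Kdm1b* had no such window.

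The KDM4 enzymes remove methyl groups from H3K9 and H3K36. The start of *Kdm4c* is poor in CpG. The window on chromosome 4 from 74240001 to 74245000 holds only 32 CpGs, and the printed sequence before the start has none, like 7.87% of RefSeq promoters. It nonetheless had 3.79, 3.08 and 5.01 normalized RPKM in WT. The cKO libraries had 3.00, 0.96 and 3.21, of which replicate 4 overlapped the WT range. The difference of −1.57 was not called (standard error 0.652, adjusted p = 0.293 from limma) and was −0.85 without cKO replicate 3 and −1.04 without WT replicate 4. H3K4me3 continued over the next windows and peaked at the second, CG-rich start (74250001 to 74255000, 142 CpGs), where WT had 5.47, 5.32 and 4.41 and cKO 5.94, 3.21 and 3.79 normalized RPKM. This window also holds the antisense gene *A230083N12Rik*, and its difference of −0.75 was not called (adjusted p = 0.552 from limma). The cKO level thus stood below WT in each of the first 3 windows, by 1.57, 1.03 and 0.75 normalized RPKM, without a call.

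*Kdm4a* starts only 42 bases from the edge of its window (chromosome 4 from 118180001 to 118185000), which had 3.32, 2.79 and 3.54 normalized RPKM in WT and 3.39, 3.21 and 1.95 in cKO. The next window inside the gene had 3.48 ± 0.998 (WT) and 3.30 ± 0.353 normalized RPKM (cKO), and neither was called (adjusted p = 0.689 and 0.876 from limma). At the far end of *Kdm4a* the window from 118135001 to 118140000 (114 CpGs) had 2.22, 2.69 and 2.07 in WT and 4.28, 2.55 and 5.18 normalized RPKM in cKO. Its difference was 1.68 (standard error 0.590, adjusted p = 0.210 from limma), with cKO replicate 3 inside the WT range, and the window was singled out after its values were seen. *Kdm4b* carried H3K4me3 over its start window (chromosome 17 from 56325001 to 56330000), with 4.995, 6.29 and 4.11 in WT and 3.72, 4.66 and 4.32 normalized RPKM in cKO, a difference of −0.90 (adjusted p = 0.488 from limma) that was −0.32 without WT replicate 2 and −1.41 without WT replicate 4. The window after it, with 51 CpGs, was as high, at 5.27 ± 0.124 in WT and 4.43 ± 1.31 normalized RPKM in cKO.

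Further inside the KDM4 genes the non-overlapping windows were low in WT. In *Kdm4b* the window from 56345001 to 56350000 had 1.18, 1.33 and 1.02 in WT and 1.40, 2.55 and 2.39 normalized RPKM in cKO (difference 0.94, adjusted p = 0.297 from limma). In *Kdm4c* the window from 74285001 to 74290000 had 0.86, 0.84 and 1.11 in WT and 1.51, 2.02 and 1.23 normalized RPKM in cKO (difference 0.65, adjusted p = 0.437 from limma). *Kdm4a*, *Kdm2a* and *Kdm6b* had no internal window with non-overlapping groups, and in *Kdm2b* the window from 122930001 to 122935000 had 1.02, 0.94 and 0.84 in WT and 1.06, 3.47 and 1.81 normalized RPKM in cKO (difference 1.18, adjusted p = 0.351 from limma). In that *Kdm2b* window WT replicate 1 held 4 reads and cKO replicate 1 held 5, so the groups were barely apart, and cKO replicate 3 stood highest.

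**Figure D4:**
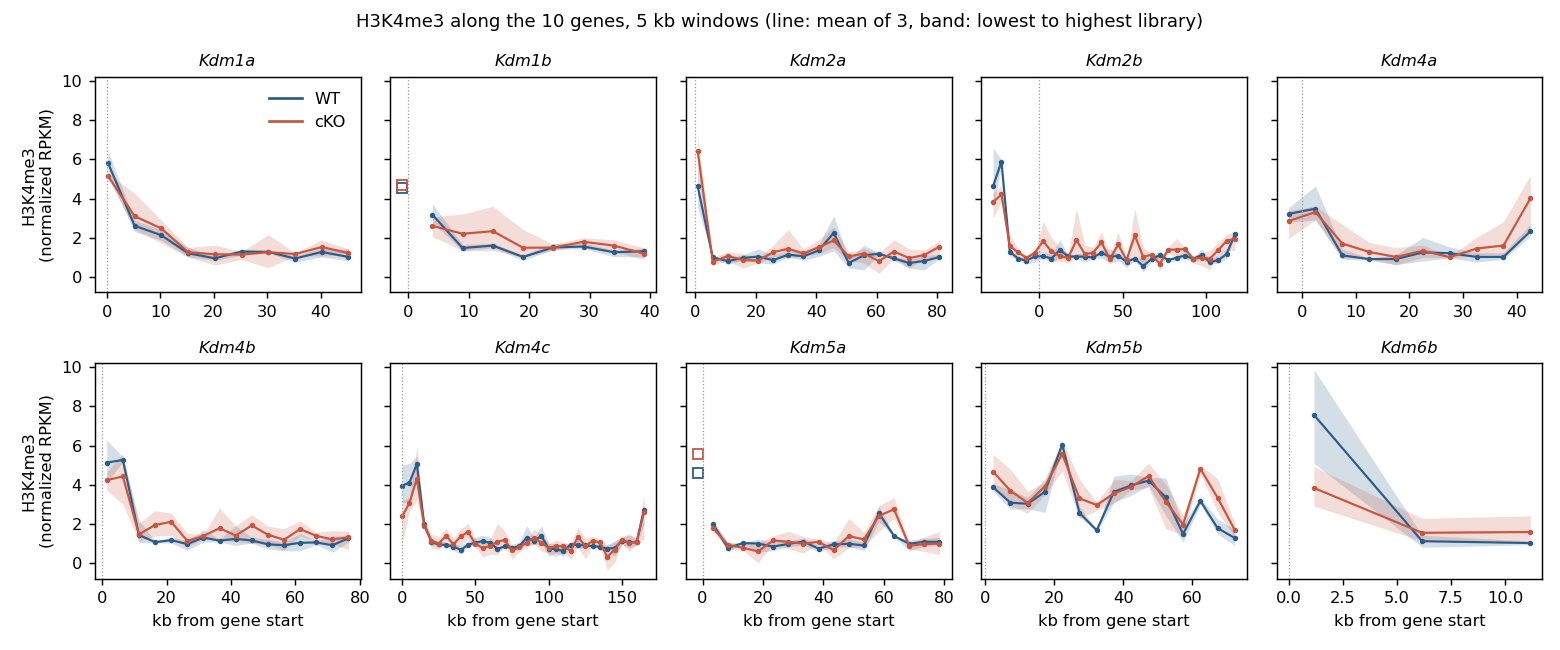
H3K4me3 (normalized RPKM) along the windows of each gene by distance from the gene start in kb, as the mean of 3 libraries with a band from the lowest to the highest library. Open squares give the start windows of *Kdm1b* and *Kdm5a*, which carry a neighbour's label. Most genes fall to about 1 within a few windows of the start, *Kdm5b* stays above the median of all windows over most of its length, and *Kdm2b* is highest upstream of its start.

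The KDM5 enzymes are those that remove H3K4me3 itself. The profile of *Kdm5b* was broad, and 13 of its 14 internal windows had a WT mean above the median of all windows (1.46 normalized RPKM), up to 6.06 ± 0.158 in the window from 134580001 to 134585000, which has only 38 CpGs and is higher than the start. The start window, on chromosome 1 from 134560001 to 134565000 with 191 CpGs, had 3.90, 4.05 and 3.69 normalized RPKM in WT and 5.55, 4.53 and 3.93 in cKO, which overlapped (difference 0.79, adjusted p = 0.448 from limma, and 0.35 without cKO replicate 1). The mean over the internal windows was 2.90, 3.17 and 3.15 in the WT libraries and 3.64, 3.44 and 3.51 normalized RPKM in the cKO libraries. It lay at the 83.8th percentile of the 13940 protein-coding gene bodies with at least 2 internal windows in WT, where the other 9 genes lay between the 8.70th and the 42.4th.

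*Kdm5b* also held the increase closest to the threshold. The window from 134620001 to 134625000, 62.3 kb from the start and with 32 CpGs, had 3.01, 3.17 and 3.36 normalized RPKM in WT and 4.9997, 4.93 and 4.56 in cKO, well apart. The difference was 1.65 (standard error 0.333, 95% interval 0.907 to 2.39, adjusted p = 0.0513 from limma), and the window was called among windows with a mean of at least 1 (adjusted p = 0.0429) and without cKO replicate 1 (adjusted p = 0.0487). On whole reads the difference was 0.50 on the log2 scale and was not called (edgeR adjusted p = 0.674), nor was it with an intensity trend (limma adjusted p = 0.143). The fits with a mean of at least 1 and without cKO replicate 1 called 1.83% and 3.3% of the windows tested. The windows from 134590001 and from 134625001 were also higher in every cKO library than in every WT library, by 1.29 and 1.55 normalized RPKM (adjusted p = 0.0943 and 0.150 from limma).

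*Kdm5a* had 5.52, 4.15 and 4.14 normalized RPKM in WT and 4.72, 6.91 and 5.04 in cKO at its start (chromosome 6 from 120360001 to 120365000, shared with *Ccdc77*), an overlap in which cKO replicate 3 stood highest. The difference of 0.95 was not called (adjusted p = 0.491 from limma), fell to 0.28 without cKO replicate 3 and was −0.07 on the log2 scale of whole reads. Inside the gene, 63.4 kb from the start, the window from 120425001 to 120430000 had 1.39, 1.42 and 1.35 in WT and 2.62, 3.34 and 2.29 normalized RPKM in cKO, with no overlap. Its difference of 1.36 (standard error 0.371) missed the threshold in the main test (adjusted p = 0.113 from limma) and passed it with an intensity trend (adjusted p = 0.0434) and with edgeR on whole reads (log2 difference 1.13, adjusted p = 0.0426). It was the only member window called by both of these.

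When each gene body was summarised by the mean over its internal windows, all 10 genes were higher in cKO, by between 0.0025 (*Kdm4c*) and 0.496 normalized RPKM (*Kdm6b*), as were 68.6% of all 13940 gene bodies. Groups did not overlap in *Kdm5b* (3.07 ± 0.149 in WT and 3.53 ± 0.104 normalized RPKM in cKO, difference 0.457) and in *Kdm2b* (1.04 ± 0.0377 and 1.30 ± 0.159 normalized RPKM, difference 0.261). For both the exact permutation test gave p = 0.1, the smallest that 3 libraries against 3 allow, and 26.8% of all gene bodies had every cKO library above every WT library. Without cKO replicate 3 the difference was −0.0172 in *Kdm1a*, −0.00638 in *Kdm1b* and 0.104 in *Kdm6b*, and it was 0.503 in *Kdm5b* and 0.173 normalized RPKM in *Kdm2b*. In *Kdm4c* the difference turned to −0.0758 without cKO replicate 1, to −0.0147 without WT replicate 2 and to −0.0106 normalized RPKM without WT replicate 4. In *Kdm2a* it fell from 0.116 to 0.0215 without WT replicate 2, in *Kdm5a* from 0.0821 to 0.0131 without cKO replicate 1, in *Kdm4a* from 0.386 to 0.229 without cKO replicate 3 and in *Kdm4b* from 0.331 to 0.162 without cKO replicate 3.

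**Figure D5:**
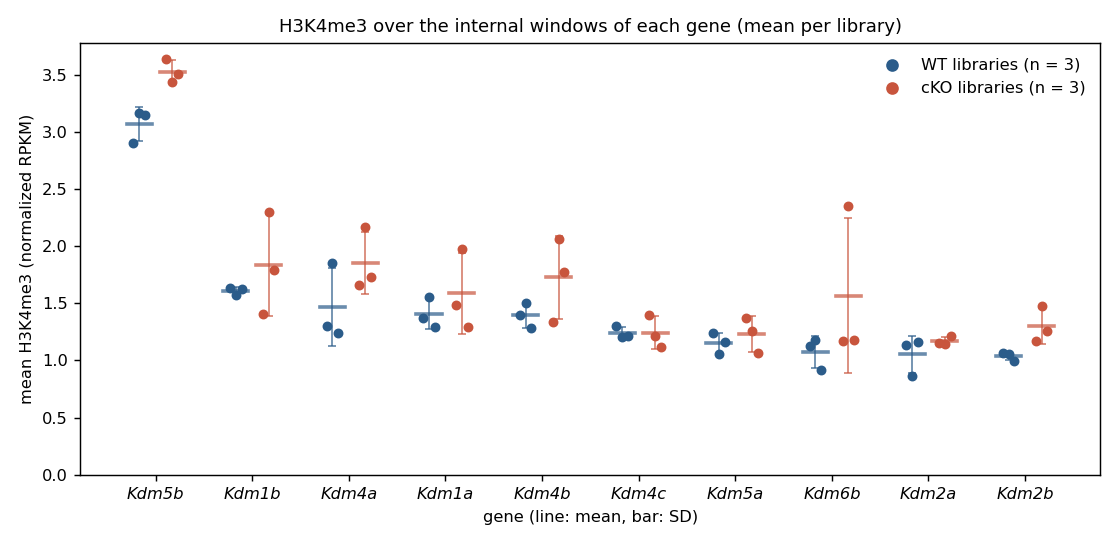
Mean H3K4me3 (normalized RPKM) over the internal windows of each gene, one point per library, with the mean and SD of 3 WT and 3 cKO libraries. *Kdm5b* stands above the other genes in both genotypes (3.07 and 3.53), and its cKO libraries lie above its WT libraries.

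Related genes were read from lists of the pathway at their start windows. None of 9 other demethylase genes was called in either direction, with differences between −1.99 and 0.85 normalized RPKM and a median of 0.07. Of 11 genes for H3K4 methyltransferases and their shared subunits, 1 fell, *Setd1b* itself, and 0 rose, and on whole reads *Setd1b* was not called (edgeR adjusted p = 0.449). None of 12 partners of KDM1 and KDM2B and none of 11 methyltransferases of the opposed marks was called. The median differences of these 3 lists were 0.14, 0.11 and 0.05 normalized RPKM, beside −0.11 for the 10 demethylase genes and 0.09 for all protein-coding start windows, and 5, 3 and 2 of their genes had an unadjusted p under 0.05, against 1 of the other demethylases, 3 of the 10 and 24.3% of all protein-coding start windows. Over all windows of their genes, the share called was 2.04% for the other demethylases (3 of 147, increases in *Jmjd1c* and *Phf2*), 6.31% for the H3K4 list, 1.16% for the partners (2 of 173, increases in *Phf21a* and *Bcor*) and 1.42% for the opposed marks (an increase in *Nsd1* and a decrease in *Ezh2* among 141), beside 1.02% of all windows. In the H3K4 list, with 111 windows, the 6 increases all lay in *Kmt2a* and the decrease in *Setd1b*. These genes were named after their values were seen.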

How the data were processed

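The 10 genes, the lists and the tests were chosen with earlier results of these data known. Per the labels and the study's methods, the authors trimmed reads with Trim Galore 0.4.2, mapped them with Bowtie2 2.2.9 to GRCm38, removed mappings with a MAPQ under 20, excluded windows with an input RPKM above 4 and left out 1 library per genotype for poor enrichment, which is not analysed here. The deposited H3K4me3 values are a score, the enrichment-normalized RPKM in 5 kb windows, scaled so that the 40th and 99th percentiles (1.23 and 6.77) agree in all 6 libraries. Input was deposited as a signal, reads per window scaled to the library. Whole reads were recovered from the steps of the deposited values (100% of values within 0.1 reads of a whole number in each library). The input libraries held between 20756128 and 26566505 reads. Intervals cover the spread between libraries. Duplicates could not be told from independent fragments.

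Groups and replicates were taken from the labels. Differences were fitted with limma 3.58.1 (R 4.3.3) on the deposited scale (two-sided, no intensity trend, no replicate block, Benjamini-Hochberg adjustment over 544879 windows, adjusted p under 0.05), which was tested on simulated data. The p-values of limma and edgeR on all libraries rest on the spread between 3 pools per genotype, with information on the spread shared across windows. Fits that left out a library or used the replicate block rest on fewer pools. Means over internal windows were compared by two-sided exact permutation tests. Alternatives were log2(value + 1), an intensity trend, quantile normalization, a mean of at least 1, omission of each library, a block by replicate number, edgeR 4.0.16 on whole reads (TMM, quasi-likelihood, at least 10 reads per window), other window definitions, and medians for the internal means. Gene starts came from GENCODE M21, and CpGs were counted in the GRCm38 sequence. All 10 genes are named with their start windows and, since no window was called, so is the internal window of largest difference among those with non-overlapping groups. Of the pathway lists, the genes with a called start window were to be named. Other windows were chosen after their values were seen.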

Additional observations from a re-analysis of the deposited data

How the results depend on the processing

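None of the 159 windows was called on the log2(value + 1) scale or after quantile normalization, where 0 and 1 windows were called over the whole table and 73232 and 90771 had an unadjusted p under 0.05. With an intensity trend 2 member windows were called, 1 start and 1 internal window, with a mean of at least 1 there were 2 as well (1 internal, 1 beyond *Kdm2b*), where 1.83% of the windows tested were called, and with edgeR on whole reads 1 internal window was. No window was called when windows were assigned by overlap with the annotation (160 windows) or when any window within 500 bp of a transcript start was taken (47 windows). Leaving out 1 library gave between 0 and 2 called member windows, between 0 and 1 internal windows and 0 start windows. The 2 came without cKO replicate 1, where 17979 windows of the table were called, against 1761 without cKO replicate 3 and at most 1 without any of the others. The direction at the start of *Kdm1b* reversed with edgeR (−0.20 on the log2 scale) and without WT replicate 2 (−0.14 normalized RPKM), that of *Kdm4a* without cKO replicate 4 (0.086), and that of *Kdm5a* with edgeR (−0.070 on the log2 scale). Over the fits without 1 library, the difference ran from −0.14 to 0.53 at *Kdm1b* and from −0.63 to 0.086 at *Kdm4a*. None of these was called. The other start windows kept their direction in every alternative. The start of *Kdm6b* was lower in cKO in all of them, with differences between −4.96 and −2.57 when 1 library was left out. The median difference of all windows was −0.103 on the deposited scale and 0.0872 on the log2 scale of edgeR, opposite signs that bear on small differences. The median over the internal windows gave a difference of 0.15 in *Kdm4c*, where the mean gave 0.0025, and −0.0082 in *Kdm5a*, where the mean gave 0.0821. The cause of these dependences was not tested.

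The replicate numbers 1 and 4 occur in both genotypes, but nothing in the labels says that they mark a shared litter or day. Deviations of libraries with the same number correlated at 0.319 and 0.0190 across windows, which are 2 pairs only. A block by replicate number compares the genotypes within these 2 pairs alone. WT replicate 2 and cKO replicate 3 have no partner and do not enter the differences, so the values below are not comparisons of all 6 libraries. With the replicate number as a block, 7 member windows were called, 1 start window (*Kdm6b*, −3.11, limma adjusted p = 4.64e-08), 5 internal windows (3 in *Kdm5b*, 1 in *Kdm4a* from 118135001 with 2.59 and adjusted p = 1.25e-05, and 1 in *Kdm4b* from 56330001 with −1.45 and adjusted p = 0.0413, all from limma) and the window beyond *Kdm2b*, where 33433 windows of the table (6.14%) were called, and the sign at the start of *Kdm1b* reversed to −0.068. The block moved the start difference from 1.81 to 0.907 in *Kdm2a*, from 0.762 to 0.204 in *Kdm2b*, from 0.955 to 0.0528 in *Kdm5a*, from −0.364 to −0.757 in *Kdm4a* and from −0.896 to −0.531 in *Kdm4b*, none of them called. The block also turned the difference of the internal means below 0 in *Kdm1b* (−0.0260) and in *Kdm4c* (−7.54e-05).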

Other observations

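The 40 windows within 10 kb of the member windows were read in the same test, and 1 of them was called (2.5%, against 1.02% of all windows). An unadjusted p under 0.05 was found in 13 (32.5%, against 14.9% of all windows), every cKO library lay above every WT library in 11 (27.5%, against 9.88%) and below in 4 (10%, against 9.95%). These 40 windows include the start windows of *Kdm1b* and *Kdm5a* given above, other gene starts and windows over the ends of member genes. Among protein-coding start windows, 24.3% had an unadjusted p under 0.05 and in 24.2% the groups did not overlap in either direction. The called window lies on chromosome 1 from 134640001 to 134645000, beyond the end of *Kdm5b*, and overlaps the lincRNA gene *Gm26783*. H3K4me3 was 8.45, 8.53 and 7.91 normalized RPKM in WT and 5.55, 6.38 and 5.91 in cKO, with every cKO library below every WT library (difference −2.35, standard error 0.370, limma adjusted p = 0.0279, edgeR adjusted p = 0.610). The window before it, with the last bases of *Kdm5b*, was also lower in every cKO library (6.05 ± 0.583 in WT, 5.05 ± 0.457 normalized RPKM in cKO, limma adjusted p = 0.290). The nearest windows inside *Kdm5b* with non-overlapping groups had higher cKO values, at adjusted p of 0.0513 and 0.150 from limma.

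Upstream of *Kdm4c* the window from 74230001 to 74235000 on chromosome 4 had 4.27 ± 0.587 in WT and 5.92 ± 0.347 normalized RPKM in cKO (limma adjusted p = 0.0840, edgeR adjusted p = 0.897). Upstream of *Kdm2b* the window from 123025001 to 123030000 on chromosome 5, inside *Orai1*, had 2.16 ± 0.568 in WT and 3.95 ± 0.650 normalized RPKM in cKO (limma adjusted p = 0.0890, edgeR adjusted p = 0.311). Upstream of *Kdm2a* the window from 4405001 to 4410000 on chromosome 19, with 20 CpGs and no gene label, had 1.28, 1.03 and 0.78 in WT and 1.56, 3.47 and 2.68 normalized RPKM in cKO. It was not called by the main test (limma adjusted p = 0.158) and was called with an intensity trend (limma adjusted p = 0.0204) and with edgeR on whole reads (adjusted p = 0.0176). Upstream of *Kdm1a* the window from 136605001 to 136610000 on chromosome 4 had 3.83 ± 0.412 (WT) and 5.83 ± 1.64 normalized RPKM (cKO) and did not pass the test (limma adjusted p = 0.201, edgeR adjusted p = 0.838). It overlaps the processed pseudogene *Gm12986*. Mappings of low quality had been removed, and whether reads of the parent gene remained in this window was not tested. These windows were chosen after their values were seen.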
